A study of Mus musculus with 10 samples.

Results

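Of 18193 named genes on the array, 8 encode the water and sodium channels of the kidney's collecting duct, the receptor that controls the water channels, and Elf5, a transcription factor of the same cells. They are the aquaporins Aqp2, Aqp3 and Aqp4, the vasopressin receptor Avpr2, the 3 subunits of the epithelial sodium channel Scnn1a, Scnn1b and Scnn1g, and Elf5. They were taken by exact symbol, which gave 14 probe sets of the 45037 tested. RNA came from urogenital systems of mouse embryos at embryonic day 15.5 and was hybridized to Affymetrix arrays, 1 array per RNA pool of 1 or 2 urogenital systems. Embryos of the first group had the genotype Wnt9bcneo/cneo (homozygous below, 5 pools). Embryos of the second had the genotype label Wnt9bcneo/+ (control below, 5 pools), while their titles call them WT, so it stays unknown whether control embryos carried 1 cneo allele or none. How the cneo allele alters Wnt9b is not stated in the labels. The tissue is whole, with gonads, ducts, bladder and adrenal glands beside the kidney, and no cell type was isolated.

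Principal cells of the collecting duct fine-tune how much water and salt leave the body. Vasopressin acts on the V2 receptor (Avpr2) at the basolateral side, cyclic AMP rises, and vesicles that carry the water channel Aqp2 fuse with the apical membrane; water leaves the cell through Aqp3 and Aqp4 on the basolateral side. Sodium enters through the epithelial sodium channel, a complex of alpha, beta and gamma subunits whose abundance and opening are raised by aldosterone, and is pumped out by the sodium pump. Elf5 belongs to the ETS family of transcription factors, which bind DNA around a GGAA core, and in the mouse kidney it marks principal cells. Collecting ducts arise from the ureteric bud, the epithelium that makes Wnt9b.

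Promoters are shown for Aqp2, Scnn1b and Elf5, the water channel, a sodium channel subunit and the ETS factor that were all lower in homozygous pools. Each window runs from 250 bases before to 50 bases after a transcription start, 5′ to 3′ on the gene's strand, from RefSeq on build GRCm38.p6. Capitals mark the ETS core GGAA or its reverse complement TTCC. The windows are chr15:99578806-99579105 (plus strand) for Aqp2, chr7:121864788-121865087 (plus strand) for Scnn1b and chr2:103411848-103412147 (plus strand) for Elf5.
Aqp2: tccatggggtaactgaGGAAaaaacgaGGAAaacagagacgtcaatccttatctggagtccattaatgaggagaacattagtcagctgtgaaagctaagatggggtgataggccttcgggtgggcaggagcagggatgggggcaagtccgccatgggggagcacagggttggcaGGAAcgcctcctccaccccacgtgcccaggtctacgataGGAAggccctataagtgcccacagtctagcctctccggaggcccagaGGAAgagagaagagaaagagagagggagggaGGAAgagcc
Scnn1b: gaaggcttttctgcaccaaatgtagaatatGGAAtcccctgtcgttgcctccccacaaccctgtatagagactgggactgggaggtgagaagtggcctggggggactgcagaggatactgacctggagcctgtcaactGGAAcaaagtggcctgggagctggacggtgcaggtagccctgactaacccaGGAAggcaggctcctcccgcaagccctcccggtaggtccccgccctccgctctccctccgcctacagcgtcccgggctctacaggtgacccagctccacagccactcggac
Elf5: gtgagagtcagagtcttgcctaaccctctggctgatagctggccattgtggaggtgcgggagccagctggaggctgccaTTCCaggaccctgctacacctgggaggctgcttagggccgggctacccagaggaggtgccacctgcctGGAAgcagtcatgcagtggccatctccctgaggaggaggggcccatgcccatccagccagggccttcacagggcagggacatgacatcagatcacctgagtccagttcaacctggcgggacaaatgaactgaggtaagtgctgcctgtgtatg
Windows were found for 6 of the 8 genes; Aqp4 and Scnn1a are named only. The Aqp2 window held 6 matches to GGAA on both strands together, a number reached by 15.67% of 32851 mouse promoter windows of the same length. It held 3 matches to the longer AGGAAG, which contains the core, and 1.9% of windows had as many. Scnn1b had 3 core matches, a number reached by 66.34% of windows, and 1 AGGAAG match, reached by 35.35%. The Elf5 window shown had 2 core matches, reached by 84.64%, and no AGGAAG match. A second Elf5 start, with its window at chr2:103423818-103424117, is not shown. It had 1 core match, reached by 95.98%, and no AGGAAG match. The windows of Aqp3, Avpr2 and Scnn1g held no AGGAAG match either. At least 1 GGAA match was present in 96.0% of all windows, so the short core alone sets no gene apart. A match is a run of letters, and binding was not measured.

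All 8 genes had a lower mean in homozygous pools, and none passed the test over all genes (limma, Benjamini-Hochberg adjusted p under 0.05), a threshold that 0.967% of all genes passed. Each gene is represented by its probe set with the highest mean. A lower mean was found for 46.1% of all genes, and a log2 difference of -0.5 or lower, which all 8 had, for 7.96%. Their log2 differences ran from -1.27 in Elf5 to -0.54 in Scnn1g, with a median of -0.76 against 0.00 over all genes. At an unadjusted p under 0.05, 6 of the 8 were lower, against 5.89% of all genes. High Xist, the RNA that coats the inactive X, occurred in homozygous pools 3, 4 and 5 alone, and this count was 3 of the 8 without those pools and 2 of the 8 with the Xist level as a covariate, though all 8 means were still lower. In bulk tissue, fewer collecting duct cells and less RNA per cell cannot be told apart.

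**Figure D1:**
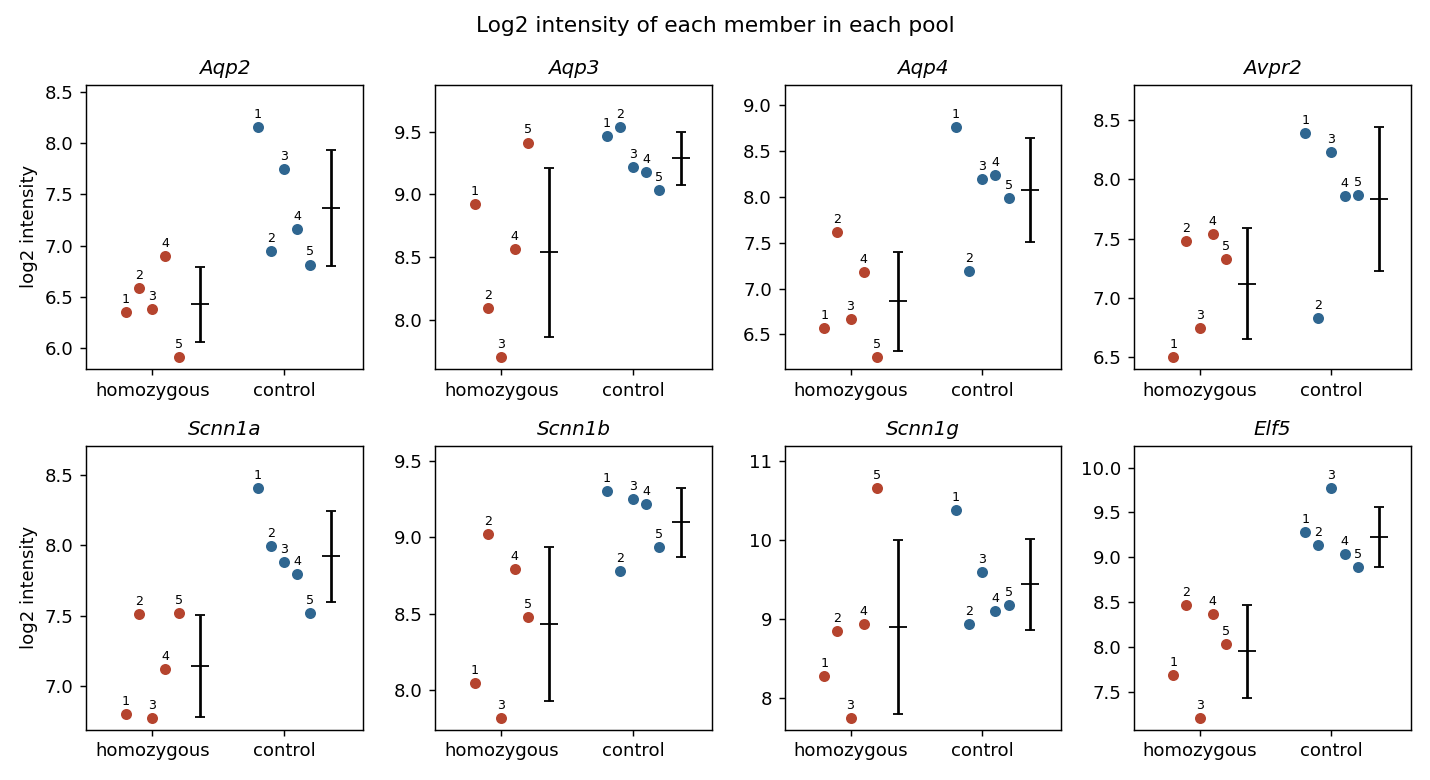
Log2 intensity (y axis) of the 8 genes in each homozygous pool (left) and control pool (right). Numbers are pool numbers and bars are mean ± SD (n = 5); Elf5 alone of the 8 has every homozygous pool below every control pool.

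Elf5 (chromosome 2, 103412098 to 103450989 in the GRCm38.p6 gene table) differed most. Its intensity was 206, 353, 148, 330.3 and 263 in homozygous pools 1 to 5, against 620.5, 563, 877, 526 and 477 in control pools 1 to 5. Every homozygous pool lay below every control pool, a pattern in this direction shared by 2.10% of all genes and by none of the other 7. The mean log2 intensity was 7.95 ± 0.52 in homozygous pools and 9.23 ± 0.34 in control pools (SD, n = 5 each). The difference of -1.27 ± 0.27 (SE; adjusted p = 0.0633 in limma) puts the homozygous level at 41.4% of control, with a 95% interval of -1.87 to -0.67 for the log2 difference. An exact two-sided permutation test gave p = 0.00794, which is the lowest p possible with 5 pools in each group. A second, dimmer probe set of Elf5 ran from 23.3 to 57.3 in homozygous pools and from 22.4 to 58.1 in control pools, a log2 difference of 0.07 ± 0.34 (SE), so the 2 probe sets disagree. With both averaged the difference was -0.60 (limma adjusted p = 0.18). Whether the dimmer probe set measures the transcript at all at this level was not tested.

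Among the water channels, Aqp2 (chromosome 15, 99579056 to 99584545), the vasopressin-regulated channel of the apical membrane, had 1 probe set. Its intensity was 82.0, 96.1, 83.4, 119.7 and 60.2 in homozygous pools 1 to 5, against 286, 124, 215, 143 and 113 in control pools 1 to 5. Homozygous pools 1, 2, 3 and 5 lay below all controls, and pool 4 lay between control pools 5 and 2. The mean log2 intensity was 6.43 ± 0.36 in homozygous pools and 7.37 ± 0.57 in control pools (SD, n = 5 each), a difference of -0.94 ± 0.30 (SE; limma adjusted p = 0.165), or 52.2% of the control level. The lowest value, in homozygous pool 5, and the highest, in control pool 1, come from the 2 arrays whose ratio of 3' to middle actin signal, a measure of RNA integrity, was 97.7 and 94.8, against 9.87 to 33.1 on the other 8. Without these 2 arrays the Aqp2 difference was -0.61 ± 0.24 (SE; limma adjusted p = 0.236).

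Aqp4 (chromosome 18, 15389394 to 15410982), a basolateral water channel that is also made by glia and by fast skeletal muscle, had the second largest difference. Its intensity was 95.3, 197, 102, 145 and 76.1 in homozygous pools 1 to 5, against 434, 146, 293, 303 and 253 in control pools 1 to 5. The groups overlap through control pool 2, which at 146 lay below homozygous pool 2. As for Aqp2, the lowest and highest values were on the 2 arrays of high actin ratio, and without them the log2 difference was -0.89 ± 0.33 (SE; limma adjusted p = 0.214). Over all pools the log2 difference was -1.21 ± 0.34 (SE; limma adjusted p = 0.124), from means of 6.86 ± 0.54 in homozygous and 8.07 ± 0.57 in control pools (SD, n = 5 each). The other 2 probe sets were near the floor of 16 used here, at or under it on 2 and 5 arrays, with differences of -0.33 and -0.39. The mean of all 3 gave -0.64 ± 0.10 (SE; limma adjusted p = 0.0374), the alternative under which Aqp4 passed. Values set to the floor do not vary, so this pass rests in part on probe sets with little signal. All 10 skeletal muscle markers were higher in homozygous pools with none past the threshold, and their summed intensity was 4611 to 41613 in homozygous pools against 344 to 45533 in control pools. The glia and Schwann cell markers were higher in 5 of 6 cases, with sums of 2695 to 5396 in homozygous pools against 1330 to 4247 in control pools. No marker of either list was at the floor on 5 or more arrays. Their part in the Aqp4 values was not tested.

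Aqp3 (chromosome 4, 41092724 to 41098183), the basolateral channel that also passes glycerol, is made by bladder lining and epidermis as well. Its brightest probe set read 486, 274, 208, 379.9 and 682 in homozygous pools 1 to 5, against 707, 744, 596, 579 and 525 in control pools 1 to 5. Homozygous pool 5 lay within the control range and the other 4 below it, so that the homozygous spread of 0.67 (SD, log2, n = 5) was wider than the control spread of 0.21 (SD, log2, n = 5). The log2 difference was -0.75 ± 0.30 (SE; limma adjusted p = 0.274), and the difference was -0.96 without homozygous pool 5 and -0.54 without homozygous pool 3. A second Aqp3 probe set, between 0.63 and 87.4, differed by -1.13 ± 0.52 (SE), and the remaining 2 were at the floor on 9 and on all 10 arrays. The mean of all 4 gave -0.44 ± 0.14 (SE; limma adjusted p = 0.178). Of the 8 bladder lining markers 7 were higher in homozygous pools and none passed, with sums of 1392 to 4599 in homozygous pools against 848 to 4858 in control pools and Krt15 at the floor on at least 5 arrays. Of 6 epidermis markers 3 were higher and 3 lower, with sums of 1234 to 1656 in homozygous pools against 984 to 3679 in control pools and Flg at the floor on at least 5 arrays. The part of either tissue in the Aqp3 values was not tested.

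Avpr2 (chromosome X, 73891765 to 73894428) encodes the V2 receptor, which couples vasopressin to cyclic AMP. Its single probe set read 90.3, 178, 107, 186 and 161 in homozygous pools 1 to 5, against 335, 114, 301, 233 and 234 in control pools 1 to 5. Control pool 2 again fell among the homozygous pools, and the other 4 control pools lay above all of them. The log2 difference was -0.72 ± 0.33 (SE; limma adjusted p = 0.343), with a 95% interval of -1.47 to 0.04 that includes 0. Avpr2 is X-linked, and the 3 homozygous pools of high Xist stood apart (log2 of 13.75 to 14.27, against 6.07 or less in the other 7 pools). Without those 3 pools its difference was -0.85 ± 0.50 (SE), over 2 homozygous and 5 control pools.

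The 3 sodium channel subunits lie on 2 chromosomes. Scnn1a (chromosome 6, 125314271 to 125344943), the alpha subunit that the channel needs to conduct, read 112, 182, 109, 139 and 183 in homozygous pools 1 to 5, against 339.6, 255, 236, 223 and 183 in control pools 1 to 5. The groups met only at homozygous pool 5 and control pool 5, which were equal to 3 digits. Its log2 difference was -0.78 ± 0.22 (SE; limma adjusted p = 0.128), or 58.4% of control. Scnn1b (chromosome 7, 121865038 to 121918728), the beta subunit, read 265, 521, 225, 443 and 357 in homozygous pools 1 to 5, against 632, 440.3, 610.4, 596 and 491 in control pools 1 to 5. Homozygous pools 2 and 4 lay within the control range and the other 3 below it, a log2 difference of -0.67 ± 0.24 (SE; limma adjusted p = 0.208).

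Scnn1g (chromosome 7, 121734420 to 121768482), the gamma subunit and neighbour of Scnn1b, was the most variable of the 8. It read 311, 462, 215, 490.3 and 1619 in homozygous pools 1 to 5, against 1326, 491, 770.3, 551 and 580.1 in control pools 1 to 5. Homozygous pool 5 held the highest value of all 10 pools, and the other 4 homozygous pools lay below every control pool. The log2 difference was -0.54 ± 0.52 (SE; limma adjusted p = 0.665), with a 95% interval of -1.72 to 0.64. The highest value of each group was on its array of high actin ratio. Without these 2 arrays the difference was -0.75 ± 0.29 (SE; limma adjusted p = 0.23). It was -0.98 without homozygous pool 5 and -0.25 without homozygous pool 3. The part of RNA integrity in these values was not tested. The difference of Scnn1g was closer to 0 than those of Scnn1a and Scnn1b, but its interval covers both, and the 3 were not tested against each other.

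Pools varied within a genotype in a pattern that several genes shared. Homozygous pool 3 had the lowest value of its group in 5 of the 8 genes, and pools 2 and 5 the highest in 3 each. Control pool 1 had the highest value of its group in 6 of the 8, and control pools 2 and 5 the lowest in 4 each. Homozygous pool 5 and control pool 1 are the 2 arrays of high actin ratio. Without these 2 arrays the log2 difference was -0.92 for Aqp3, -0.63 for Avpr2, -0.75 for Scnn1a, -0.63 for Scnn1b and -1.28 for Elf5. The part of RNA integrity in this pattern was not tested. The mean log2 intensity of the 8 genes ran from 7.13 to 7.95 in homozygous pools and from 8.17 to 9.02 in control pools. The share of all probe sets at or under the floor separated the genotypes, at 19.9% to 21.1% in homozygous pools and 22.2% to 23.0% in control pools, but the brightest probe set of each of the 8 genes was above the floor on every array.

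Markers of the ureteric epithelium, from which collecting ducts arise, were compared in the same way. Of 13 markers of the ureteric epithelium 10 had a lower mean in homozygous pools, 3 had a higher one and none passed, with a median log2 difference of -0.26; summed intensity was 13928 to 36688 in homozygous pools against 25757 to 41842 in control pools. The epithelial adhesion genes Epcam and Cdh16 differed by -0.91 and -1.05 and Calb1, the calcium-binding protein of distal and collecting duct cells, by -1.15 (a dimmer Epcam probe set differed by 0.39), whereas the keratin genes Krt8 and Krt18 differed by -0.18 and -0.04. These 5 were picked after their values were seen, as were Ret and Wnt7b of the same list, which differed by 0.04 and 0.02. Wnt9b, also on the list and named as a check, differed by -0.23 ± 0.36 (SE, limma adjusted p = 0.803). Its mean log2 intensity was 6.83 in homozygous and 7.05 in control pools. No gene of the list was at the floor on 5 or more arrays; Hoxb7, a defining gene of this epithelium, was at it on 1 homozygous and 3 control arrays, so its probe set says little here. Krt8, Krt18, Cdh1 and Epcam are also made by other epithelia of the urogenital system.

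Lower values were not limited to collecting duct genes. Of 7 proximal tubule markers 6 had a lower mean in homozygous pools. The other, Aqp1, was higher by 0.17 and is named after its value was seen. Past the threshold were 4, all lower, and 3 did not pass. Of all genes, 0.429% were lower and past the threshold. The list's median log2 difference was -1.17, against -0.76 for the 8 genes. Those that passed were the endocytic receptor genes Lrp2 (-1.73) and Cubn (-1.45), the transcription factor gene Hnf4a (-1.51) and the phosphate transporter gene Slc34a1 (-1.17). Their list's summed intensity was 1961 to 3157 in homozygous pools against 5108 to 7475 in control pools. All 6 neuron and chromaffin cell markers were higher in homozygous pools and none passed, with a median of 2.92 and sums of 3986 to 10131 in homozygous pools against 578 to 2557 in control pools. All 6 adrenal cortex markers were higher as well and none passed, with a median of 1.94 and sums of 1756 to 21682 in homozygous pools against 236 to 13031 in control pools. No marker of these 3 lists was at the floor on 5 or more arrays. Whether the 8 genes differed from any of these lists, and the part of tissue makeup in their values, was not tested.

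Set against the mean of the 13 markers in the same pool, the 8 genes were still lower on average in homozygous pools, by amounts that were smaller by the 0.44 that the marker mean itself differed. Relative to the markers, Elf5 was at -1.36 ± 0.28 in homozygous pools and -0.52 ± 0.32 in control pools (SD, log2, n = 5 each), and the groups stayed apart. Relative Aqp4 was at -2.45 ± 0.54 in homozygous pools and -1.67 ± 0.68 in control pools, and relative Aqp2 at -2.88 ± 0.43 in homozygous pools and -2.38 ± 0.57 in control pools (SD, log2, n = 5 each), with overlap in both. The relative differences of the 3 sodium channel subunits were -0.34 for Scnn1a, -0.23 for Scnn1b and -0.10 for Scnn1g. Those of Aqp3 and Avpr2 were -0.31 and -0.28. The marker mean includes Hoxb7, which was near the floor, and markers also made by other epithelia. Single markers differed by -1.15 (Calb1) to 0.04 (Ret), so the relative values depend on which markers are used. These relative values are a description, and no test was run on them.

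**Figure D2:**
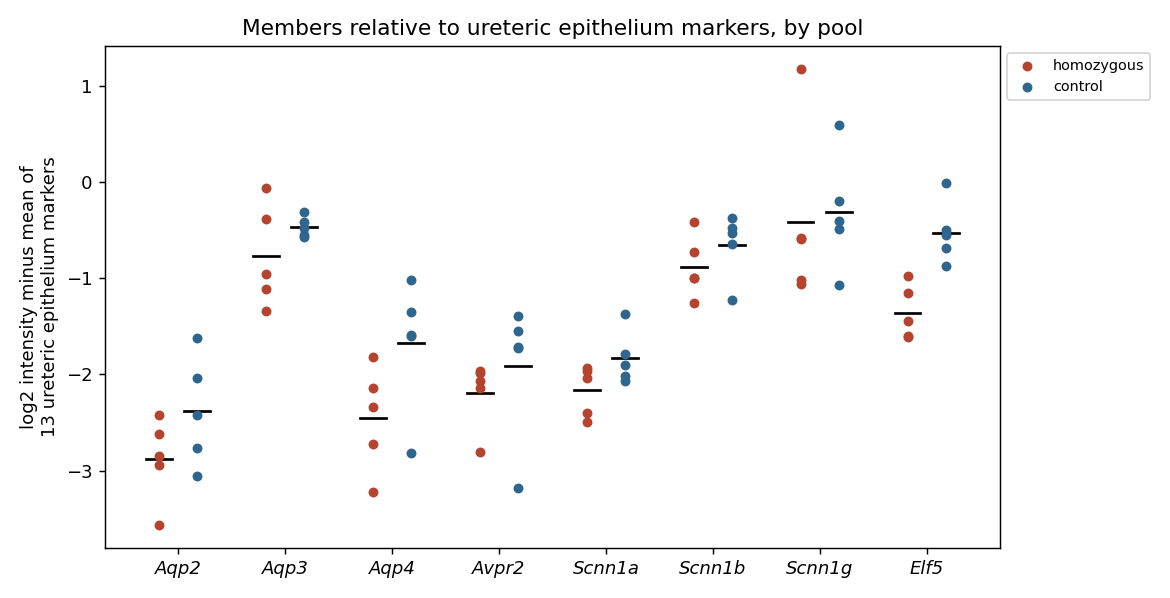
Log2 intensity of each gene minus the mean log2 intensity of 13 ureteric epithelium markers in the same pool (y axis), for 5 homozygous (left of each pair) and 5 control pools. Points are pools and lines are group means; the groups are apart for Elf5, where the means are -1.36 in homozygous and -0.52 in control pools, and overlap for the other 7 genes.

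Genes around these channels were described by lists. The 19 measured genes of the aldosterone response and of sodium channel control were lower in 18 cases, with a median of -0.42, and none passed. The 2 with the smallest p were Fxyd2, a regulator of the sodium pump, at -1.37 ± 0.31 (SE; limma adjusted p = 0.0753), and Kcnj1, the ROMK potassium channel through which potassium is secreted, at -1.29 ± 0.25 (SE; limma adjusted p = 0.0535). In both, every homozygous pool lay below every control pool. A second Kcnj1 probe set, at the floor on 7 arrays, differed by 0.15, and both other measurable probe sets of Fxyd2 were lower. The channel-activating serine proteases St14 and Prss8 differed by -1.20 and -1.19, Hsd11b2, the enzyme that shields the mineralocorticoid receptor from glucocorticoids, by -0.72, and the receptor gene Nr3c2 by -0.26. These 4 were picked after their values were seen.

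The 16 genes of vasopressin signalling and Aqp2 traffic did not share this direction. Of these, 8 were lower and 8 higher with a median of -0.03, and none passed. The phosphodiesterase gene Pde4d differed by 0.54 (limma adjusted p = 0.256) and Creb1, which encodes a cyclic AMP response factor, by -0.33 (limma adjusted p = 0.276). The next brightest probe set of Creb1 differed by -0.28 and the third by 0.04. Most genes of this list are made by many cell types of the urogenital system, and the part of cell makeup in their values was not tested.

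Of the 9 other aquaporins 4 were lower and 5 higher, with a median of 0.09 and none past the threshold. Aqp11, an intracellular aquaporin of the proximal tubule, differed by -1.04 ± 0.22 (SE; limma adjusted p = 0.0633), and its dimmer probe sets by -0.11 and -0.73. Aqp7, a glycerol channel of the proximal tubule, differed by -0.62 ± 0.14 (SE; limma adjusted p = 0.0707) near the floor, where 2 homozygous arrays lay, and its other probe set by 0.09. The lens and pancreas aquaporins Mip and Aqp12 were at the floor on most arrays. The list median is the value of Mip, so it says little about the family. The 5 other genes of the DEG/ENaC family, the acid-sensing channels, had a median of -0.02. That is the value of Asic5, which was at the floor on 3 homozygous and 2 control arrays. Asic1 and Asic4 differed by 0.45 and 0.30 (limma adjusted p = 0.317 and 0.728).

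Of 15 collecting duct and epithelial regulators 12 were lower, with a median of -0.60 and none past the threshold. Lhx1, a homeobox gene of the nephric duct and early nephron, differed by -1.57 ± 0.31 (SE; limma adjusted p = 0.0558), and Foxi1, the forkhead factor of intercalated cells, by -1.40 ± 0.33 (SE; limma adjusted p = 0.083). Both separated the genotypes. Tfcp2l1, a collecting duct transcription factor picked after its value was seen, differed by -1.28 ± 0.37 (SE; limma adjusted p = 0.137), and Elf3, an ETS gene related to Elf5 and picked in the same way, by 0.16. The difference between the 8 genes and these lists was not tested either.

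**Figure D3:**
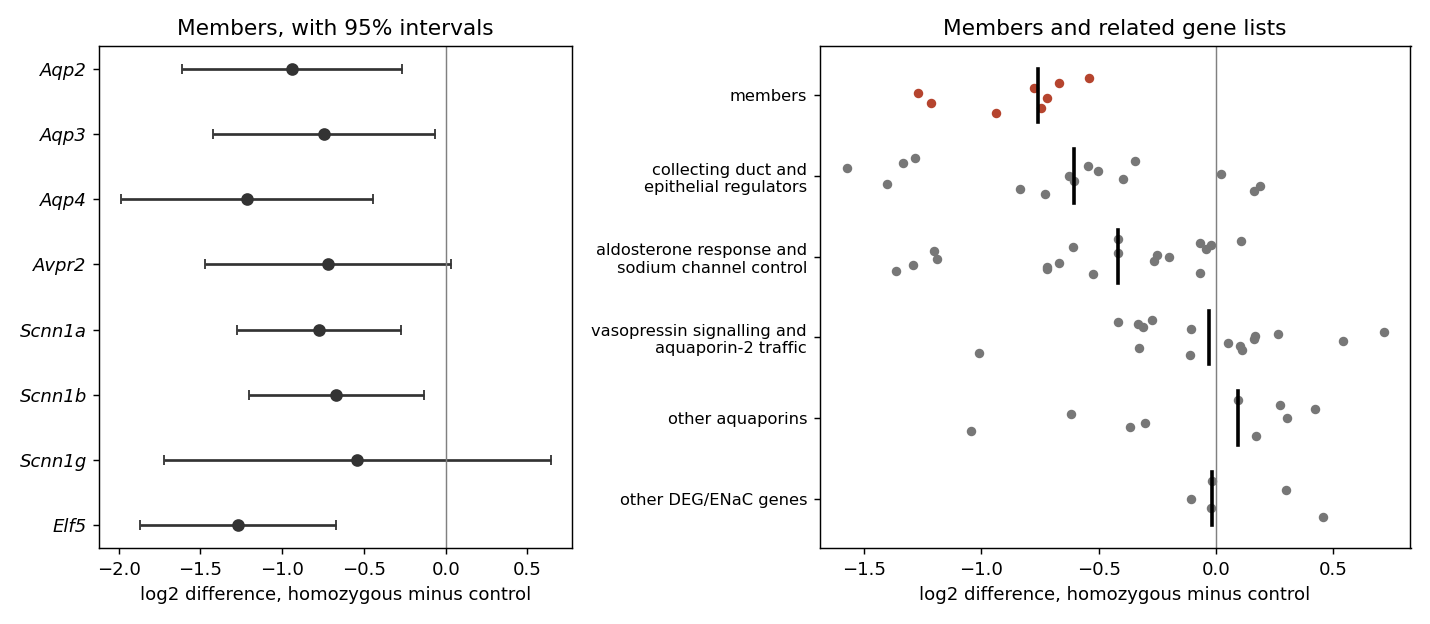
Log2 difference, homozygous minus control (x axis), of the 8 genes with 95% intervals (left) and of each gene in the related lists with list medians as black lines (right). All 8 lie below 0 and the intervals of Avpr2 and Scnn1g include 0. The medians run from -0.76 for the 8 genes to 0.09 for the other aquaporins. The latter is the value of Mip, which was at the floor on most arrays.

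The genes whose level followed these channels most closely over the 10 pools were looked up among 10915 genes with a mean log2 intensity of at least 7. For Scnn1b they were Fxyd4 (Pearson r = 0.98), a corticosteroid-induced regulator of the sodium pump in the collecting duct, the cystine transporter subunit gene Slc7a9 (0.95) and the transcription factor gene Sall2 (0.95). For Elf5 they were Tmem213 (0.97), Pdzk1 (0.96), a scaffold of the brush border, and Cubn (0.96), an endocytic receptor of the proximal tubule. Pdzk1 (-1.36, limma adjusted p = 0.0473) and Cubn (-1.45, limma adjusted p = 0.0364) passed the threshold, which Elf5 did not. For Aqp2 they were the organic anion transporter gene Slc22a22 (0.97), the mitochondrial import gene Timm8a1 (0.97) and the peroxisomal thiolase gene Acaa1b (0.96). All points share the genotype difference; with the group means removed, r was 0.86 to 0.97 for these 9 genes. These values describe 10 pools and are the highest of many.

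**Figure D4:**
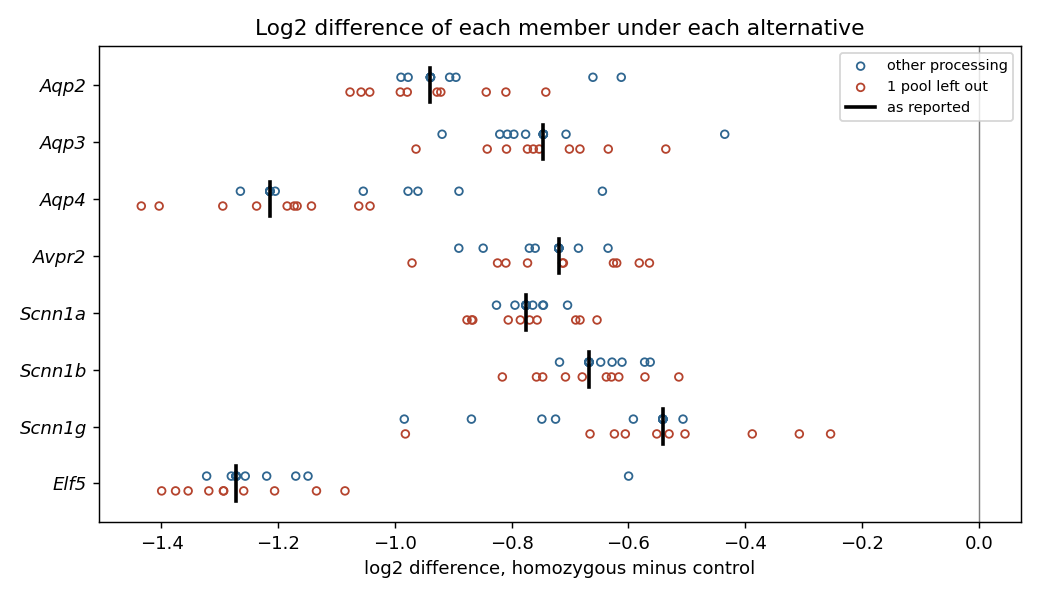
Log2 difference, homozygous minus control (x axis), of each gene as reported (black line), with 1 pool left out (red) and under the other processing choices (blue). Every value lies below 0; those of Scnn1g run from -0.98 to -0.25 and those of Elf5 from -1.40 to -0.60.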

How the data were processed

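The deposited table gives 1 linear intensity per probe set and array, scaled by the authors so that each of the 10 arrays had a mean of 500 once its top and bottom 2% of values were removed, as tested on the values. The array type is per the series' design text and the probe names; the summarization method is not given in the sources cited. That text describes isolated kidney mesenchyme at another stage, which the sample labels do not match; groups follow the sample labels. Such scaling hides changes of total RNA per tissue. Precision is limited by the number of arrays.

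The table has 45101 probe sets, of which 64 are Affymetrix controls and were not tested. Symbols came from the platform annotation: 34945 probe sets had 1 symbol, 932 several and 9160 none here. Intensities under 16 were set to 16 and taken to log2, which understates changes near this floor. Each of 18193 genes was represented by its probe set with the highest mean. Genotypes were compared over all genes with limma 3.58.1 in R 4.3.3 (lmFit, eBayes with an intensity trend), two-sided, Benjamini-Hochberg adjusted, threshold 0.05. The fit was tested on simulated data. There it recovered 53% of changes of size 1 and 82% of size 2, and 9 of 144 calls were false. Many changes of size 1 were thus missed in the simulated data, and whether the same rate holds for these arrays was not tested. The 5 pools per genotype were distinct RNA pools per the labels, and p-values rest on the variation among pools. Single values were compared by exact permutation.

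The 8 genes and the lists were chosen with earlier results of these data known; 140 of 147 list entries were measured. Named genes are the 8, the 2 genes with the smallest p in each related list, the 3 closest to Aqp2, Scnn1b and Elf5, marker genes past the threshold (added after their values were seen), and those said to be picked after their values were seen. Wnt9b was also named, as a check. Alternatives concerned probe set choice, normalization, the floor, a filter on dim genes, the replicate number as a block, the variance model, array weights, Xist and RNA integrity, and leaving out each pool.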

Additional observations from a re-analysis of the deposited data

How the results depend on the processing

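All 8 differences stayed negative under all 23 alternatives that gave them a value; Aqp2 has 22, since the filter on dim genes removes it. None of the 8 passed as reported (6 at an unadjusted p under 0.05), and 1 passed under each of 4 alternatives: Elf5 with array weights (-1.26, limma adjusted p = 0.0446), with each array centred on its median (-1.32, adjusted p = 0.0475) and with genes of mean log2 under 7 left out (-1.27, adjusted p = 0.0342), and Aqp4 with the mean of its probe sets (-0.64, adjusted p = 0.0374). Over all alternatives the limma adjusted p of Elf5 ran from 0.0342 to 0.467. With 1 pool left out the count of the 8 past the threshold stayed 0.

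Of all genes 176 passed. With 1 pool left out, 3 to 414 did. The number was 104 with all probe sets tested, 951 with array weights, 95 with a floor of 32, 283 without dim genes, 109 with the mean of probe sets, 23 after leaving out both arrays whose actin ratio was high, 28 after leaving out the 3 pools of high Xist and 13 with Xist as a covariate. The replicate numbers do not pair the pools (same-numbered deviations correlated at -0.55 to -0.17, and 0 of 10 pools correlated best with their own number); with the replicate block 1 gene passed, none of the 8 (lowest limma adjusted p among them 0.363, and 4 of the 8 at an unadjusted p under 0.05).

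No gene of the related lists passed as reported. The count at an unadjusted p under 0.05, in either direction, was 7 of 19 for sodium channel control and 7 of 15 for the regulators. It was 3 of 16 for vasopressin signalling, 2 of 9 for other aquaporins and 1 of 5 for the DEG/ENaC family. Of all genes, 15.7% had an unadjusted p under 0.05 in either direction. Past the adjusted threshold, sodium channel control had 3 with array weights and 2 without dim genes. It had 1 with median centring, with a floor of 4 and without the intensity trend. The regulators had 5 with array weights, and 1 with median centring, with a floor of 4 and without dim genes. Other aquaporins had 2 with array weights, and 1 with quantile normalization and without dim genes. With 1 pool left out each of these 3 lists had 0 to 1.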
